A study of Mus musculus with 2 samples.

Results

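The 9 genes described here encode 4 blood cell growth factors and 5 chains of their receptors. The ligands are Csf1 (M-CSF), Csf2 (GM-CSF), Csf3 (G-CSF) and Flt3l, and the receptor chains are Csf1r, Csf2ra, Csf2rb, Csf3r and Flt3. The members were chosen by symbol, and each symbol matched 1 of the 56941 rows of the gene table. Their UMIs (molecules counted once each) were read in 2 single-cell RNA libraries from mouse liver metastases. Both libraries came from C57BL/6 mice aged 6 to 8 weeks that had MC38-LM3b colon carcinoma cells injected into the spleen, and lesions were taken 2 weeks later. The injected cells of the control library (Ctrl) carried shScramble, a hairpin without a target, and those of the other library (KD) carried 1 hairpin against SLAMF3, the receptor encoded by Ly9. Lesions of 3 mice were pooled per library before a positive selection for CD45, the marker of blood cells. The hosts' immune cells carried neither hairpin, and animals within a pool could not be told apart.

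Colony-stimulating factors set how many myeloid cells are made and how long they live. Csf1 binds Csf1r, a receptor kinase that keeps monocytes and macrophages alive, and Csf3 binds Csf3r, the main receptor for neutrophil production. Csf2 binds the ligand-specific chain Csf2ra, which signals together with the beta chain Csf2rb, a chain that the receptors for interleukin 3 and interleukin 5 also use. Flt3l binds the kinase Flt3 and supports the development of dendritic cells. In liver, resident macrophages called Kupffer cells depend on Csf1r.

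After removal of cells with few genes, much mitochondrial RNA or very high content, 9814 of 10416 Ctrl cells with 64259327 UMIs and 10185 of 10943 KD cells with 61698394 UMIs were kept, with medians of 5411.5 and 4989 UMIs per cell. Clusters were joined into classes by marker genes. Macrophages and monocytes numbered 4122 in Ctrl and 3090 in KD, T and NK cells 3653 and 2351, neutrophils 779 and 2220, conventional dendritic cells (cDC) 382 and 581, B cells 276 and 893, and plasmacytoid dendritic cells (pDC) 82 and 73. Endothelial cells (150 and 645) and a class with keratin and collagen genes, called tumor or fibroblast (161 and 96), are not blood cell types but were present after the selection. Their CD45 RNA was not examined here. Kupffer cells numbered 47 and 83. The T and NK cluster with most cells was led by Ccl5 and Prf1 in Ctrl (1656 cells) and by Lef1 and Klra7 in KD (732 cells), and a macrophage cluster led by Pf4 and Fn1 held 39 Ctrl and 740 KD cells. The libraries shared 25 barcodes among kept cells, and without those cells each member's ratio stayed within the counting interval given here. Ly9, the targeted gene, had 12 UMIs in the Ctrl tumor or fibroblast class and 7 in the KD class, so its knockdown was not detectable at this depth.

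Levels are given as CPM, the UMIs of a gene per 1000000 UMIs of its class in that library. No division by transcript length was needed between genes, because each UMI marks the 3' end of 1 molecule. With 1 library per group there was no replicate and no test, and a ratio compares 2 libraries. Each interval is an exact 95% interval for counting error only, and a call means a difference of at least 2-fold in a gene with at least 30 UMIs in the class. Ly9 was at 5.91 CPM (3.05 to 10.3) in the Ctrl tumor or fibroblast class and at 5.36 CPM (2.15 to 11) in the KD class. All values are of RNA, not protein.

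Promoters of Csf1 and Csf3r are shown because these were the ligand and the receptor with the highest levels, both in neutrophils. The 250 bases upstream of the gene start are from RefSeq on GRCm38.p6, 5′ to 3′ on the strand of the gene. The Csf1 window lies on the minus strand at chr3:107760470-107760719 and the Csf3r window on the plus strand at chr4:126024409-126024658. Capitals mark a motif found by search on both strands. In Csf1 they are the 10 bases of the kappa-B motif, written as the reverse complement of the form searched, and in Csf3r they are GAGGAA, the core bound by Ets factors such as PU.1.
Csf1: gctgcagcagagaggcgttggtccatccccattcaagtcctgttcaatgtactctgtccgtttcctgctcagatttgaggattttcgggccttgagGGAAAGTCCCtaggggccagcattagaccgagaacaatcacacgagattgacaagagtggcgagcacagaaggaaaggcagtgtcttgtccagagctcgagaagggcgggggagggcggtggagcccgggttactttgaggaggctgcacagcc
Csf3r: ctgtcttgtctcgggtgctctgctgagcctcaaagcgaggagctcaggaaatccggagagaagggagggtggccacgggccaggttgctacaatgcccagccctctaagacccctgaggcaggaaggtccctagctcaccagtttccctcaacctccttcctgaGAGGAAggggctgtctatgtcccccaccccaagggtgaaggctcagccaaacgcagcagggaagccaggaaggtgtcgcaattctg
This kappa-B form started 154 bases before the Csf1 start and occurred in 46 of 32851 promoter windows of that length (0.14%). Other spellings of the motif were not counted. GAGGAA was common, in 7639 windows (23.3%), and was present 1 time in Csf3r and 2 times in Csf2ra. The STAT motif TTCNNNGAA was in 7.02% of windows and in none of the 6 member windows that could be read, those of Csf1, Csf2, Csf2ra, Csf3r, Flt3 and Flt3l. A match describes letters only.

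The 9 members divided into ligands, led by neutrophils, T and NK cells or the tumor or fibroblast class, and receptor chains that followed myeloid lineages. Csf1 and, by mean level, the scarce Csf3 were led by neutrophils, and Csf2 by the tumor or fibroblast class and T cells. Flt3l, seen at a low level in many classes, was led by T and NK cells. Csf1r, Flt3 and Csf3r were led by macrophages, dendritic cells and neutrophils respectively, and Csf2ra and Csf2rb were shared between all 3 lineages. The plot of levels by class gives all 9 members in 9 classes.

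**Figure D1:**
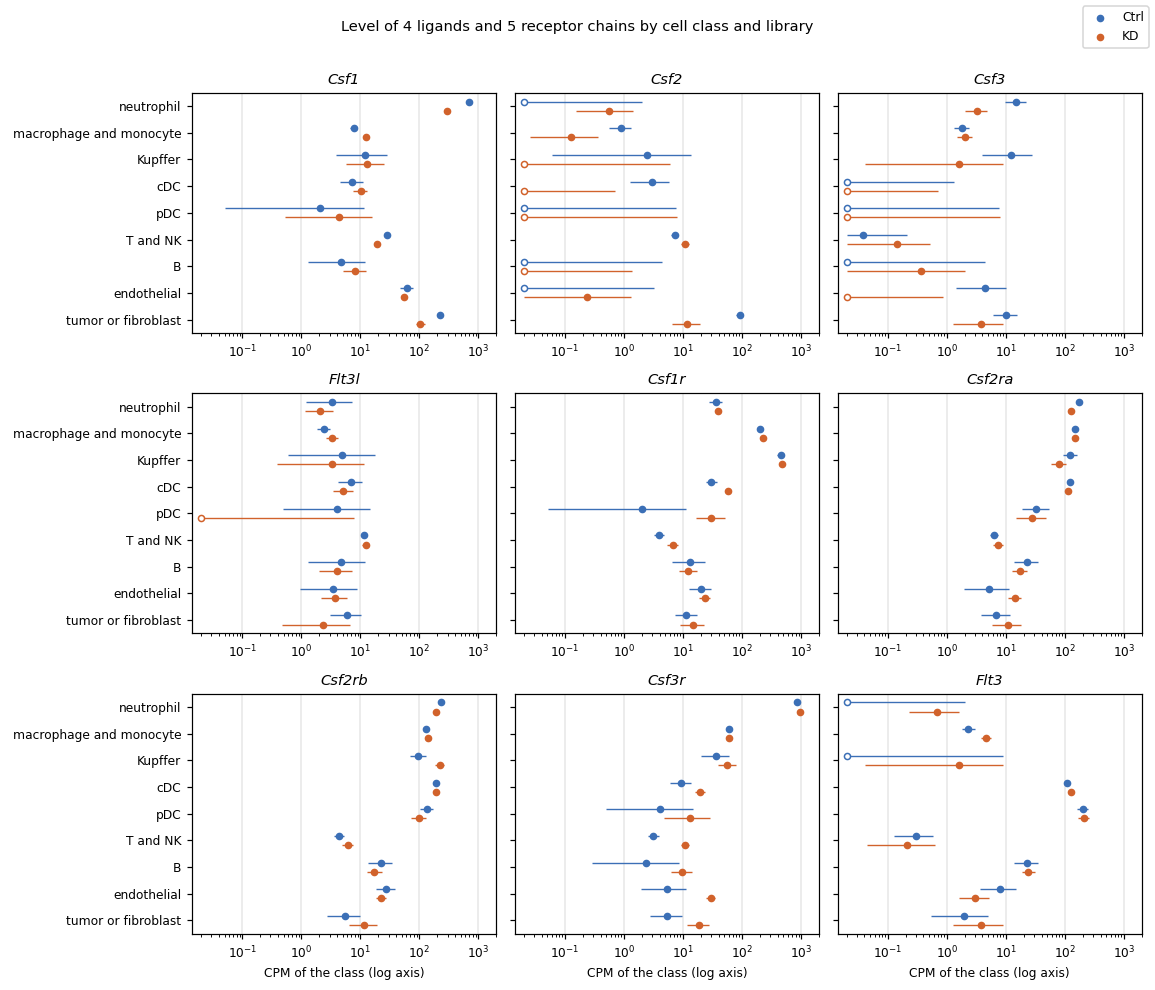
Level of each member in 9 cell classes, as CPM of the class on a log axis, with exact 95% Poisson intervals as bars; blue is Ctrl, orange is KD, and open points at the left edge mark classes with 0 UMIs. Csf1 stands at 690 and 298 CPM in neutrophils, Csf3r at 860 and 965, and Flt3 at 198 and 208 in pDC.

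Csf1, the macrophage growth factor, was highest in neutrophils. Ctrl neutrophils had 1266 Csf1 UMIs, or 690 CPM (653 to 729), and KD neutrophils had 2158, or 298 CPM (285 to 311). The level was lower in KD, with a log2 ratio of -1.21 (-1.31 to -1.11). KD had more neutrophils, so the share of a library's Csf1 UMIs that neutrophils held was higher in KD, at 64.7% against 43.8% in Ctrl. Over all kept cells Csf1 was at 45.0 CPM in Ctrl and 54.1 CPM in KD.

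The share of neutrophils with a Csf1 UMI differed in the same direction as the level. After each cell was thinned to 1500 UMIs, which left out 124 shallower Ctrl and 183 shallower KD neutrophils, 306 of 655 Ctrl cells (46.7%, 42.8 to 50.6) and 559 of 2037 KD cells (27.4%, 25.5 to 29.4) had one. Unthinned shares were 55.3% and 37.7%, at medians of 2149 and 2809 UMIs per cell. B cells, which should lack Csf1, had a UMI in 0.82% and 0.73% of thinned cells, at medians of 2697 and 2648 UMIs before thinning. Neutrophils were thus far above that background in both libraries.

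Csf1 varied widely between neutrophil sub-clusters. The sub-cluster led by the interferon-induced genes Cxcl10 and Ifit2 was at 1035 CPM in Ctrl (418 cells) and 892 CPM in KD (110 cells), a log2 ratio of -0.22 (-0.43 to -0.01). The sub-cluster led by Arf2 and Saa3 was at 1250 CPM in Ctrl (67 cells) and 644 CPM in KD (772 cells), a log2 ratio of -0.96 (-1.19 to -0.71). Cells led by Fosb and Cxcl3 had 297 and 289 CPM, with intervals that overlapped. Levels were lowest in Camp+ Ltf+ immature cells, at 142 and 49.1 CPM, and in Prok2+ Retnlg+ cells, at 104 CPM in 618 KD cells against 1 UMI in 19 Ctrl cells. The 2 sub-clusters with the highest level made up most Ctrl neutrophils, whereas KD held more of the lower ones. With the sub-clusters weighted alike in both libraries, Csf1 was at 507 CPM in Ctrl and 352 CPM in KD, a log2 ratio of -0.53 in place of -1.21.

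**Figure D2:**
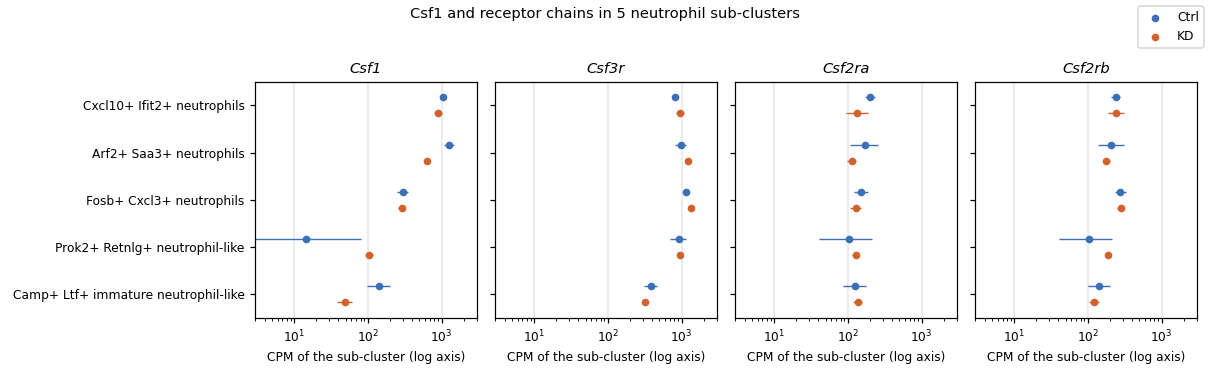
Csf1, Csf3r, Csf2ra and Csf2rb in 5 neutrophil sub-clusters, as CPM of the sub-cluster on a log axis with exact 95% Poisson intervals; blue is Ctrl and orange is KD. Csf1 spans 14.7 to 1250 CPM between sub-clusters, whereas Csf2rb stays between 103 and 279 CPM. The 14.7 CPM is a single UMI in 19 Prok2+ Retnlg+ Ctrl cells.

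Csf1 was also present in cells of other lineages, at lower levels. The tumor or fibroblast class had 462 UMIs in Ctrl (228 CPM) and 136 in KD (104 CPM), a log2 ratio of -1.13 (-1.42 to -0.85). Within that class, the cells with Krt8 and Krt18 UMIs, the keratins of the carcinoma cells, had 222 and 89.7 CPM. Summed fibroblast markers in the class were at 1833 CPM in Ctrl and 863 CPM in KD and summed tumor markers at 1479 and 1524 CPM, and the part of this mix in the ratio was not tested beyond the keratin-positive cells. Endothelial cells had 60.9 and 55.2 CPM, with overlapping intervals. Both classes were below neutrophils in either library.

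In T and NK cells Csf1 was at 27.9 CPM in Ctrl and 19.2 CPM in KD, a log2 ratio of -0.54 (-0.74 to -0.34). The Prf1+ Ccl3+ T cells had 32.7 and 23.5 CPM, cycling T cells 26.2 and 16.7 CPM, and Ccl5+ Gzma+ T cells 33.8 and 16.7 CPM, so the direction was the same in these 3 cytotoxic or cycling sub-clusters. Lef1+ Tcf7+ naive-like T cells were at 4.47 CPM in both libraries, from few UMIs and below the 4.71 and 8.11 CPM of B cells. Macrophages and monocytes went the other way, from 7.78 CPM (205 UMIs) to 12.6 CPM (306 UMIs), a log2 ratio of 0.70 (0.44 to 0.96). Without sub-clusters of mixed lineage the macrophage levels were 4.33 and 7.65 CPM (0.82, 0.47 to 1.18), near the 4.71 and 8.11 CPM of B cells. With the sub-clusters of the macrophage lineage weighted alike they were 6.73 and 7.40 CPM, a log2 ratio of 0.14. Summed neutrophil markers in macrophages and monocytes moved with this, at 396 CPM in Ctrl and 2207 CPM in KD with 9 of 9 markers detected in both, and their part in the result was not tested.

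Csf2, which acts on granulocytes, macrophages and dendritic cells, came from few cells. The tumor or fibroblast class had 184 UMIs in Ctrl (90.7 CPM, 78.0 to 105) and 15 in KD (11.5 CPM, 6.42 to 18.9), a log2 ratio of -2.98 (-3.85 to -2.22). The Ctrl UMIs were uneven. They lay in 34 of 161 cells, 4 cells held 50% of them, and the top cell had 40. In cells with Krt8 and Krt18 UMIs the levels were 106 CPM (113 cells) and 13.7 CPM (66 cells).

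That difference depended on the upper limits for UMIs and genes per cell. The cells over the limits numbered 58 in Ctrl and 45 in KD, and held 26.5% and 48.5% of all deposited Csf2 UMIs. In KD, 173 Csf2 UMIs lay in 5 such cells, with 82 in one and 53 in the next; in Ctrl, 152 lay in 16 cells, with 68 and 27 in the top pair. With no upper limits the class had 331 UMIs (106 CPM) in 188 Ctrl cells and 188 UMIs (75.0 CPM) in 124 KD cells, and the log2 ratio was -0.50 (-0.77 to -0.24). Csf2 was then lower in KD by less than 2-fold. Csf1 hardly moved, at 227 and 114 CPM without the limits. Csf3 in this class was at 9.85 and 3.83 CPM within the limits and at 11.9 and 3.59 CPM without them.

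**Figure D3:**
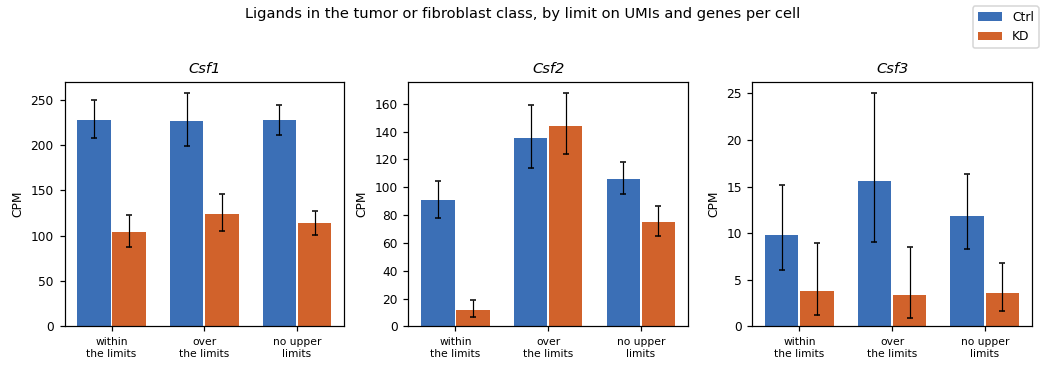
Csf1, Csf2 and Csf3 in the tumor or fibroblast class, as CPM on linear axes from 0, for cells within the upper limits, cells over them, and all cells of the class; bars are blue for Ctrl and orange for KD, with exact 95% Poisson intervals. Csf2 over the limits is at 135 CPM in Ctrl and 144 CPM in KD, while within them it is at 90.7 and 11.5 CPM.

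T and NK cells were the other source of Csf2. They had 193 of the 422 UMIs of kept Ctrl cells and 155 of the 183 in KD. The KD level of 10.9 CPM lay within the interval of the KD tumor or fibroblast class (6.42 to 18.9). The top pair of kept KD cells, both T and NK cells, had 22 and 14 of those 155 UMIs. Ctrl T and NK cells were at 7.22 CPM, and the log2 ratio was 0.60 (0.28 to 0.91). It was not computed without the top pair. Within the richest sub-clusters the direction was the opposite. Cd4+ Cd40lg+ T cells, the helper sub-cluster, were at 75.5 CPM in Ctrl (129 cells) and 46.2 CPM in KD (330 cells), a log2 ratio of -0.71 (-1.30 to -0.10). Il4+ Zbtb16+ T cells were at 121 CPM in Ctrl (11 UMIs in 20 cells) and 15.2 CPM in KD (12 UMIs in 193 cells). With the sub-clusters weighted alike the levels were 11.7 CPM in Ctrl and 8.45 CPM in KD, and the log2 ratio turned to -0.47. That ratio has no interval. It rests in part on the 11 UMIs of the 20 Ctrl Il4+ Zbtb16+ T cells and was not computed without them. Treg-like cells had 0 UMIs in both libraries (73 and 118 cells), and in B cells 0 of 276 Ctrl cells and 0 of 893 KD cells had one, which allows up to 1.09% and 0.336% of cells with a UMI. These limits are 3 counts of the total, hold for counting error only and do not limit how many cells express the gene.

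Other classes had few Csf2 UMIs. Macrophages and monocytes had 23 UMIs in Ctrl and 3 in KD, and without sub-clusters of mixed lineage they had 1 and 2. The sub-cluster of macrophages with T cell genes held 23 and 1. The cDC class had 8 UMIs in Ctrl, 7 of them in 1 cell, and 0 in KD. Neutrophils had 0 UMIs in 779 Ctrl cells, which allows up to 0.385% of cells with a UMI, and 4 UMIs in 3 of 2220 KD cells.

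**Figure D4:**
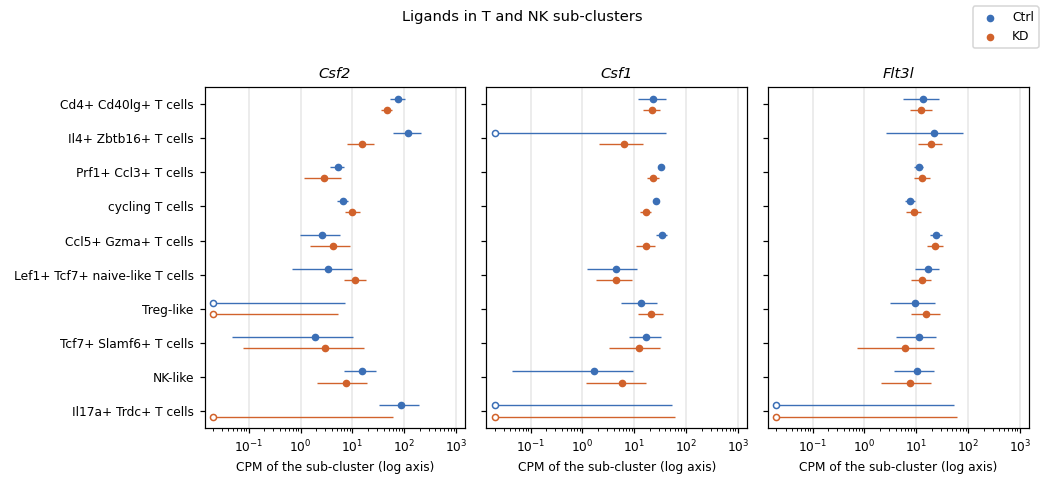
Csf2, Csf1 and Flt3l in 10 T and NK sub-clusters, as CPM of the sub-cluster on a log axis with exact 95% Poisson intervals; blue is Ctrl, orange is KD, and open points mark 0 UMIs. Csf2 is at 75.5 and 46.2 CPM in Cd4+ Cd40lg+ T cells, whereas Flt3l lies between 6.05 and 24.2 CPM wherever it was detected.

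Csf3, the granulocyte factor, was the scarcest ligand, with 105 UMIs in Ctrl and 82 in KD over all kept cells. Neutrophils led by the mean level of both libraries, with 27 UMIs in Ctrl (14.7 CPM, 9.70 to 21.4) and 23 in KD (3.18 CPM, 2.01 to 4.76), a log2 ratio of -2.21 (-3.08 to -1.36). Of the 27 Ctrl UMIs, 15 lay in the 46 immature cells and 11 in a single cell. Without the top cell of each library the log2 ratio was -1.82 (-2.87 to -0.75), from 16 and 18 UMIs. The tumor or fibroblast class was at 9.85 CPM in Ctrl (20 UMIs) and 3.83 CPM in KD (5 UMIs). Its intervals overlapped those of neutrophils in both libraries. Il1a+ Cxcl1+ macrophages had 23 UMIs in Ctrl (7.78 CPM) and 35 in KD (12.5 CPM), with intervals that overlapped, and macrophages and monocytes together held 44.8% and 58.5% of a library's Csf3.

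Flt3l was broad and low in lymphocytes. T and NK cells had 304 UMIs in Ctrl (11.4 CPM, 10.1 to 12.7) and 175 in KD (12.3 CPM, 10.6 to 14.3), a log2 ratio of 0.11 (-0.16 to 0.39). The libraries did not differ beyond counting error. The top cell had 2 UMIs in Ctrl and 3 in KD, so no single cell carried the level. Ccl5+ Gzma+ T cells led with 24.2 and 23.0 CPM, against 7.60 and 8.99 CPM in cycling T cells. Dendritic cells, which bear the receptor, had 6.91 and 5.14 CPM of the ligand. After thinning, 2.16% and 2.39% of T and NK cells had a Flt3l UMI, against 0.76% and 0.44% of neutrophils.

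Of the 9 members, 3 passed 2-fold in their leading class, the class with the highest mean level among those with at least 50 cells in each library. These were the ligands Csf1 and Csf3 in neutrophils and Csf2 in the tumor or fibroblast class, each lower in KD, and none of the 5 receptor chains passed. Csf1 did not pass with the sub-clusters weighted alike, nor Csf2 without the upper limits. Of all genes with at least 30 UMIs, 7.83% were at least 2-fold lower in KD neutrophils and 6.74% in the KD tumor or fibroblast class, and 15.5% and 8.49% passed in either direction. In neutrophils 2 of 6 measured members passed, and in pDC 0 of 2, beside 4.55% of genes there. In the tumor or fibroblast class 3 of 4 passed, with Csf3r higher (1.76), and in endothelial cells 2 of 5, Csf2ra and Csf3r, beside 6.92% of genes there. In macrophages and monocytes 0 of 8 measured members passed, beside 6.33% of genes. The leading class was picked by level and not by the ratio.

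Csf1r marked macrophages and Kupffer cells. Kupffer cells had the highest level, 446 CPM in 47 Ctrl cells and 471 CPM in 83 KD cells, and macrophages and monocytes had 197 CPM (191 to 202) and 223 CPM (218 to 229), a log2 ratio of 0.18 (0.13 to 0.24). The 6 macrophage and monocyte sub-clusters plotted lay close together, between 162 CPM in cycling KD cells and 299 CPM in 6 Ltc4s+ Pf4+ Ctrl cells. Vcan+ monocyte-like cells were lower in KD (252 and 193 CPM, log2 ratio -0.39), whereas C1qa+ Ccl8+ macrophage-like cells were higher (178 and 218 CPM, 0.29) and Il1a+ Cxcl1+ macrophages too (235 and 277 CPM, 0.24). Thinned shares of macrophages and monocytes with a UMI were 26.3% and 29.7%, against 0.50% and 0.80% of T and NK cells. Unthinned they were 62.1% and 72.8%, at medians of 5592 and 7425 UMIs.

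Dendritic cells had less Csf1r than macrophages, and more in KD than in Ctrl. The cDC class had 30.2 CPM in Ctrl (83 UMIs) and 56.8 CPM in KD (298 UMIs), a log2 ratio of 0.91 (0.56 to 1.28). This lay in cDC2-like cells, the CD11b-type dendritic cells, with 44.8 and 87.4 CPM, while cDC1-like cells had 12.7 and 6.26 CPM from 6 UMIs each. Neutrophils were between these, at 36 and 39.3 CPM with overlapping intervals.

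**Figure D5:**
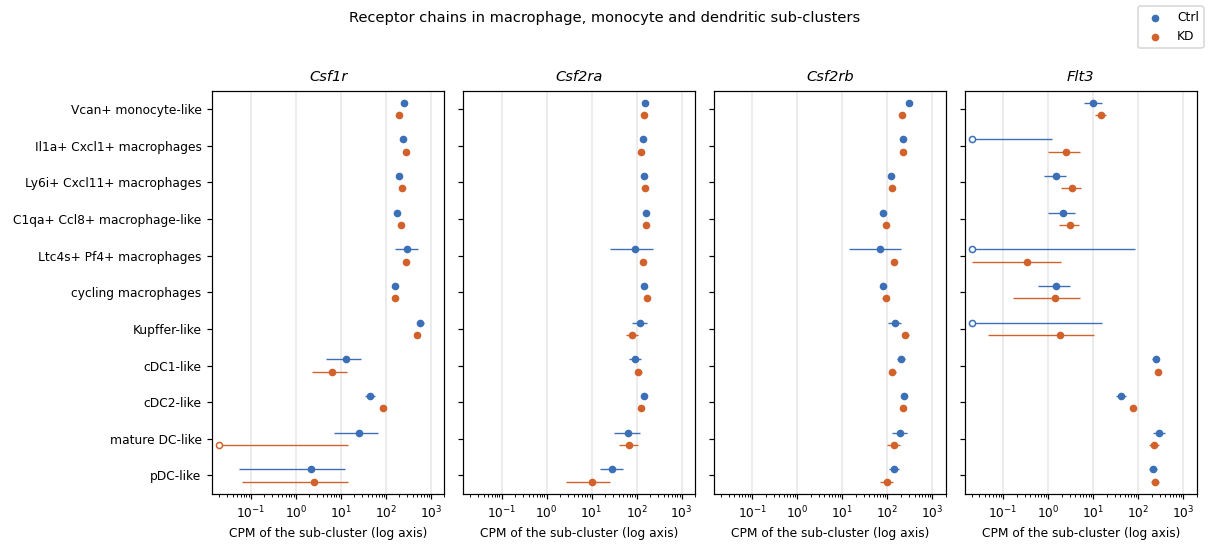
Csf1r, Csf2ra, Csf2rb and Flt3 in 11 macrophage, monocyte and dendritic sub-clusters, as CPM of the sub-cluster on a log axis with exact 95% Poisson intervals; blue is Ctrl, orange is KD, and open points mark 0 UMIs. Csf1r is at 585 and 489 CPM in Kupffer-like cells and at 6.26 to 12.7 CPM in cDC1-like cells, where Flt3 is at 246 and 271 CPM.

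Csf2ra, the alpha chain of the GM-CSF receptor, was of the same order in neutrophils, macrophages and cDC. Neutrophils had 172 CPM in Ctrl (153 to 192) and 128 CPM in KD (120 to 136), a log2 ratio of -0.43 (-0.61 to -0.24). Macrophages and monocytes had 149 and 148 CPM, and cDC 120 and 114 CPM, with a log2 ratio of -0.01 (-0.08 to 0.06) in the former. With neutrophil sub-clusters weighted alike the neutrophil levels were 145 and 129 CPM, a log2 ratio of -0.18. In T and NK cells the values were 6.28 and 7.24 CPM, and without cells of mixed lineage 3.43 and 4.02 CPM.

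Csf2rb, the beta chain, followed the alpha chain but not in every cell type. Neutrophils had 232 CPM in Ctrl (210 to 255) and 188 CPM in KD (178 to 198), a log2 ratio of -0.30 (-0.46 to -0.14), which became 0.08 with the sub-clusters weighted alike. The cDC class had 191 and 190 CPM, and pDC had 135 and 98.7 CPM although their Csf2ra was at 32.7 and 27.9 CPM. In Vcan+ monocyte-like cells Csf2rb was at 298 and 207 CPM (log2 ratio -0.53), and in C1qa+ Ccl8+ macrophage-like cells at 78.2 and 94.0 CPM (0.26). Monocyte-like cells thus stood above C1qa+ cells in both libraries, for a chain whose partner Csf2ra was at 143 to 161 CPM in both types. Kupffer cells were at 96.4 CPM in Ctrl and 223 CPM in KD, a class in which summed neutrophil markers were at 57.8 and 2840 CPM with 6 and 9 of 9 detected. Erythroid markers there were at 2.41 and 3943 CPM (1 and 4 of 4 detected) and T cell markers at 130 and 9.75 CPM (6 and 4 of 6), and the part of these lists was not tested. The related gene Csf2rb2, the beta chain specific to interleukin 3, was highest in pDC (169 and 122 CPM) and endothelial cells (136 and 69.8 CPM). The last 500 bases of the longest Csf2rb and Csf2rb2 transcripts shared 0 of 411 windows of 90 bases, whereas 8.19% of the windows of the whole Csf2rb transcript were shared.

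Both chains of the GM-CSF receptor were seen in the same cell about as often as their shares predict. After thinning, 41 Ctrl neutrophils had a UMI of both where the product of the shares gives 41.8, and 99 KD neutrophils where it gives 86.2. In macrophages and monocytes 149 and 108 cells had both, against 140 and 111. In cDC the counts were 14 and 22, against 12 and 17.9. Csf1 and Csf3r met in 204 of 655 Ctrl neutrophils (31.1%) and 425 of 2037 KD neutrophils (20.9%), which was 0.95 and 1.01 times the product of the shares.

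Csf3r marked neutrophils, where it had the highest level of the 9 members in both libraries. They had 1578 UMIs in Ctrl (860 CPM, 818 to 904) and 6993 in KD (965 CPM, 943 to 988), a log2 ratio of 0.17 (0.09 to 0.25). Over all kept cells the level was 53.2 and 149 CPM, while neutrophils were 7.94% and 21.8% of cells. Sub-clusters ran in the same order in both libraries, with Fosb+ Cxcl3+ cells highest (1156 and 1345 CPM) and Camp+ Ltf+ immature cells lowest (383 and 323 CPM). Thinned shares were 70.5% and 75.1%, against 0.41% and 1.22% in B cells. Macrophages and monocytes had 58.9 and 59.3 CPM, and without cells of mixed lineage 55.6 and 46.9 CPM, a log2 ratio of -0.25 (-0.36 to -0.13).

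Outside neutrophils and macrophages Csf3r was low, and it was higher in KD in 5 classes. T and NK cells were at 3.14 CPM in Ctrl and 10.7 CPM in KD (log2 ratio 1.77, 1.37 to 2.17), the 1 of 7 measured members past 2-fold there, where 4.36% of genes were higher and 6.56% passed in either direction. Endothelial cells had 5.22 and 29.3 CPM, the tumor or fibroblast class 5.42 and 18.4 CPM, B cells 2.36 and 9.59 CPM and cDC 9.09 and 19.4 CPM. Summed neutrophil markers moved with it in these 5 classes, from between 97.6 and 412 CPM in Ctrl, with 6 to 9 of 9 markers detected, to between 406 and 1557 CPM in KD, with 9 of 9 detected. Without T cells carrying myeloid genes the T and NK levels were 1.26 and 2.46 CPM, a log2 ratio of 0.96 (0.22 to 1.71). The part of these markers in the Csf3r values was not tested.

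Flt3 marked dendritic cells. The pDC class had 97 UMIs in each library, or 198 CPM (161 to 242) in Ctrl and 208 CPM (168 to 254) in KD, a log2 ratio of 0.07 (-0.35 to 0.49). Mature DC-like cells (288 and 227 CPM) and cDC1-like cells (246 and 271 CPM) overlapped with pDC in their intervals. cDC2-like cells were lower, at 41.3 CPM in Ctrl and 75.6 CPM in KD, a log2 ratio of 0.87 (0.46 to 1.31), the largest difference of Flt3 among dendritic sub-clusters. The cDC class as a whole had 108 and 127 CPM. B cells had 22.4 and 24.0 CPM, neutrophils 0 UMIs in 779 Ctrl cells and 0.69 CPM in KD. Over all kept cells Flt3 was at 7.75 CPM in Ctrl and 15.7 CPM in KD.

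Genes with the class pattern most like each member were found by Pearson correlation of log2(CPM + 1) over 55 points, each a sub-cluster or class in 1 library, among 13439 genes. The points share libraries and clusters, so the values are descriptive. Csf2ra and Csf2rb both had Spi1, which encodes PU.1, first (r = 0.96 for each), with Pirb among their 3 closest. Csf1r was closest to Adgre1, the gene of F4/80 (0.94), then Tgfbi (0.93) and Clec4a1 (0.91). Csf3r was closest to Arg2, Gm16556 and Trem1 (0.95 each), and Flt3 to Kmo (0.91), Bcl11a (0.85) and Mycl (0.84). Ligands were followed less closely. Csf1 was nearest to Lipg (0.83), Steap4 (0.83) and Mrgpra2a (0.82), Csf2 to Cracdl (0.81), Fhl2 (0.80) and Ntrk3 (0.79), Flt3l to Zbtb1 (0.85), Gimap3 (0.83) and Klk8 (0.83), and Csf3 to Fap (0.71) and Fosl1 (0.68).

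Genes that act beside the members were counted from 6 lists. In neutrophils, where Csf1 and Csf3 were lower in KD, 2 of 7 measured feedback genes were at least 2-fold lower and 0 higher, with a list median of -0.51 against 0.10 over all genes, of which 7.83% were lower and 15.5% passed in either direction. These were Socs1, an inhibitor of cytokine signalling (112 and 17 CPM, log2 ratio -2.72), and Cish, a STAT5 target (42.5 and 14.4 CPM, -1.57). Among signalling genes Sos1, an exchange factor for Ras, was higher (1.36). Of 5 measured cytokines listed beside Csf2, 4 were lower, namely Ccl4 (-1.92), Ccl3 (-1.78), Tnf (-1.24) and Ifng (-1.24). Summed T cell markers in neutrophils were at 80.1 CPM in Ctrl and 45.4 CPM in KD, with 6 of 6 detected in both, and neither their part nor that of the sub-cluster mix was tested. Of 12 lineage transcription factors Cebpe, a factor of granule formation, was higher (1.25) and Irf8 lower (-1.04). Of 4 other receptor chains Kit was higher (1.09 and 18.5 CPM). The Ctrl level of Kit is near the floor, as 1 UMI in Ctrl neutrophils is 0.545 CPM.

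In macrophages and monocytes, where 6.33% of genes passed, 1 of 2 measured other ligands was higher, Il6 (19.4 and 49.6 CPM, log2 ratio 1.36). Il6 was among the leading genes of the Pf4+ Fn1+ cluster, which held 39 Ctrl and 740 KD cells of the class. Of 9 feedback genes Socs1 was lower (-1.57) and Socs2 higher (1.23). Cebpe (1.03) was the 1 of 16 lineage factors past 2-fold, and Xcl1 (2.07) the 1 of 6 cytokines. Summed immature neutrophil markers in the class were at 29.4 and 225 CPM, with 6 of 6 detected in both, beside the neutrophil markers given above, and their part in the Cebpe value was not tested. Medians of these lists lay between -0.22 and 0.79 against -0.04 over all genes, the highest from 2 genes.

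Among T and NK cells, 3 of 9 measured cytokines listed beside Csf2 were higher and 0 lower. These were Il2 (log2 ratio 3.36), Il4 (2.82) and Xcl1 (1.28), with a list median of 0.43 against -0.01 over all genes, of which 4.36% were higher and 6.56% passed in either direction. Il6ra (1.81), Socs2 (2.17), Maf (1.63) and Runx1 (1.19) were higher and Irf8 lower (-1.03), while 0 of 20 signalling genes passed. The class held 20 Ctrl and 193 KD Il4+ Zbtb16+ T cells, 129 and 330 Cd4+ Cd40lg+ T cells, and 1065 and 301 Prf1+ Ccl3+ T cells. The part of this mix in the T and NK values was not tested. In the tumor or fibroblast class, where 6.74% of genes were lower and 8.49% passed, 3 of 5 measured cytokines were lower, Ifng (-4.79), Ccl3 (-3.12) and Ccl4 (-1.97), beside Socs1 (-1.06), Cebpa (-1.08) and Nr4a1 (-1.52), and Inpp5d was higher (1.05). Summed T cell markers in that class were at 76.9 CPM in Ctrl and 18.4 CPM in KD, with 6 of 6 detected in both, and their part in the cytokine values was not tested. In pDC, 4 of 37 measured genes of the lists passed, beside 4.55% of all genes. Among these, Id2 (1.88) and Xcl1 (3.36) were higher and Ccl4 (-1.30) was lower. Summed neutrophil markers in pDC were at 63.3 and 1298 CPM (5 and 9 of 9 detected). T cell markers there were at 165 and 137 CPM (6 of 6 in both), and the part of both lists was not tested.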

How the data were processed

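Cell suspensions of CD45-selected liver metastases were run as 2 libraries with 10x 3' v3.1 chemistry, lesions of 3 mice each. As deposited, the files held raw UMI counts per gene and cell, which the authors made with Cell Ranger 7.1.0 on GRCm39, not normalized and already restricted to called cells; the submitters' processing notes also name Seurat 5.1.0 and R 4.4.1. Following the limits in the study's methods, cells were dropped here for fewer than 200 genes, more than 6000 genes, more than 30000 UMIs or over 10% mitochondrial UMIs. The 19999 cells were clustered with Seurat 5.3.0 (2000 variable genes, 20 components, resolution 0.5) into 18 clusters, and lineages again into 37 sub-clusters, named from marker lists. Cell types are rebuilt names, not the authors' own. A likely doublet was removed only by the upper limits.

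UMIs were summed per class and library, and levels, ratios and shares were given with exact 95% Poisson, conditional binomial and Clopper-Pearson intervals (scipy 1.17.1). Calls of 2-fold over all genes and lists used 0.5 added UMIs. No p-value was computed. The scripts were tested on simulated data. Named genes were the 9 members, genes of 6 pathway lists past 2-fold in a member's leading class, at most 5 a list by UMIs, and the 3 genes most like each member among those with at least 200 UMIs. Some genes that this rule names are not reported here. The members and lists were chosen with earlier results of these data known. RefSeq windows on GRCm38.p6 gave 6 member promoters. Csf1r, Csf2rb and Csf3 had no entry used here.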

Additional observations from a re-analysis of the deposited data

Results flagged for a closer look

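Some members differed between Ctrl and KD in opposite directions in different classes, each beyond its counting interval, and the differences between classes were not tested. Csf1 was higher in KD macrophages and monocytes (log2 ratio 0.70, 205 and 306 UMIs) and lower in KD neutrophils (-1.21), in the tumor or fibroblast class (-1.13) and in T and NK cells (-0.54). With sub-clusters weighted alike these were 0.14 in the macrophage lineage, -0.53 in neutrophils and -0.49 in T and NK cells. Csf2 was higher in KD T and NK cells (0.60) and lower in the KD tumor or fibroblast class (-2.98), which itself was at -0.50 without upper limits. Of the 155 KD UMIs in T and NK cells, the top pair of cells had 22 and 14. With sub-clusters weighted alike the T and NK ratio became -0.47. That value has no interval and rests in part on few UMIs of Ctrl Il4+ Zbtb16+ T cells. Csf2ra was lower in KD neutrophils (-0.43) and higher in KD endothelial cells (1.44), the latter from 6 UMIs in Ctrl and 61 in KD. In endothelial cells summed neutrophil markers were at 131 and 1557 CPM (6 and 9 of 9 detected) and macrophage markers at 1566 and 2155 CPM (9 of 9 in both), and their part was not tested. Csf2rb was lower in KD neutrophils (-0.30) and higher in KD macrophages and monocytes (0.12) and in T and NK cells (0.50). With sub-clusters weighted alike the neutrophil ratio was 0.08, so that the directions no longer differed, and summed neutrophil markers in T and NK cells were at 97.6 and 870 CPM (9 of 9 in both), whose part was not tested.

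Cells outside the comparisons, those over the upper limits on UMIs or genes, held ligand UMIs in both libraries. Csf1 had 270 UMIs there in Ctrl and 159 in KD. Csf2 had 152 UMIs in Ctrl and 173 in KD. Of these Csf2 UMIs, 147 and 173 lay in cells with Krt8 and Krt18 UMIs.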

How the results depend on the processing

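The log2 ratios of the 9 members in their leading classes depended in part on the mix of sub-clusters. All 9 stayed within their counting intervals with a stricter cell filter, with classes taken from single cells, without likely doublets and with TMM scaling, and, in alternatives chosen after seeing the data, without sub-clusters of mixed lineage and without shared barcodes. With sub-clusters weighted alike, also chosen after seeing the data, Csf2rb in neutrophils turned from -0.30 to 0.076 and Csf2 in T and NK cells from 0.60 to -0.47, while Csf1 in neutrophils moved to -0.53, which ended its 2-fold call, Csf2ra there to -0.18 and Csf1r in the macrophage lineage, Kupffer-like cells included, to 0.11 and Csf1 there from 0.70 to 0.14. These weighted ratios have no interval. Without the top cell of each library, also chosen after seeing the data, Csf2 within the upper limits was at -3.21 (-4.30 to -2.29). Csf3 was then at -1.82 (-2.87 to -0.75), an interval that reaches below 2-fold. Cells over the upper limits were not part of this check. With each cell weighing the same, Csf1 in neutrophils moved to -1.01 and Csf3r to 0.31. At resolution 1.0, Csf1r in macrophages and monocytes moved to 0.26. A cluster led by Ly6i and Il1a (1123 Ctrl and 383 KD cells) was then unnamed, and the class had 3672 Ctrl Csf1r UMIs in place of 5186. Without upper limits, chosen after seeing the data, Csf1r moved to 0.10 and Csf2 in the tumor or fibroblast class to -0.50, which ended its 2-fold call. The cells were clustered anew for this setting. A cluster led by Cd5l and Pf4 (65 Ctrl and 671 KD cells) was then named Kupffer. The macrophage and monocyte class had 4047 KD Csf1r UMIs in place of 5411. The mean level of Csf1 in neutrophils over both libraries, 494 CPM, became 443 at resolution 1.0 and 445 with single-cell classes, and that of Csf3r, 913 CPM, became 825 and 843. Shares of cells with a UMI depended on thinning. Without it, the KD minus Ctrl difference moved from 3.42 to 10.7 percentage points for Csf1r, from -5.20 to -0.20 for Csf2ra, from -3.87 to 5.28 for Csf2rb, from 4.58 to 10.4 for Csf3r and from 0.22 to -0.81 for Flt3l, so that Csf2rb and Flt3l changed sign, as did Flt3 in pDC (-2.14 to 6.15). With genes of at least 10 UMIs, 11 pathway genes in place of 7 passed 2-fold in the tumor or fibroblast class. TMM scaling moved ratios by 0.11 in that class and by 0.10 in endothelial cells. The cause of these shifts was not tested.

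No paired analysis was possible because each group had 1 library. There was no replicate to leave out. Depth limited Csf3 and the tumor or fibroblast class, with 105 and 82 Csf3 UMIs in all and 161 and 96 cells.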

Other observations

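Other ligands of the same receptors had their own sources. Il34, the second ligand of Csf1r, was seen mainly in the tumor or fibroblast class, with 88 UMIs in Ctrl (43.4 CPM, 34.8 to 53.4) and 50 in KD (38.3 CPM, 28.4 to 50.4), and its intervals overlapped, unlike those of Csf1 in the same class. Il3 and Il5, which signal through Csf2rb, had 1 UMI each in Ctrl and 0 in KD over all kept cells. Kitl, the ligand of the related kinase Kit, was at 355 and 229 CPM in endothelial cells and at 309 and 167 CPM in the tumor or fibroblast class, lower in KD beyond counting error in both. Kit itself was at 398 and 539 CPM in endothelial cells and at 133 and 122 CPM in cDC, while Il3ra was at 14.5 and 11.9 CPM in macrophages and monocytes.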
